A study of Mus musculus with 6 samples.

Results

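Ly6c2-Ccr2 monocytes were a small population of the tumour, with 72 cells among 74546 cells of 4 single-cell libraries. A cell was a barcode with at least 500 UMIs (molecular tags that count a captured transcript once), more than 200 genes and under 10% mitochondrial UMIs. A monocyte was a cell with at least 2 UMIs of Ly6c2, 1 of Ccr2, 5 of Lyz2 and 1 of Csf1r, no UMI of Cd3e and at most 1 of Krt8 and Krt18 together. C1qa, C1qb and C1qc together had to stay below 0.05% of its UMIs, and S100a8 and S100a9 together below 1%. The cells were thus chosen by their measured levels of these genes, so those levels are given as a description and were not tested.

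Each library came from the primary tumour of a C57BL/6 mouse, 6 to 8 weeks old at the start, 4 weeks after KPC cells had been injected into the pancreas. KPC cells are a mouse pancreatic cancer line, and both groups carried a lentiviral construct, which was empty (OE-Vector) or held Mlkl (OE-MLKL), the executor of necroptosis. The construct was in the injected cancer cells, whereas the monocytes belonged to the host, which was treated alike in both groups. Tumours were digested with collagenase and DNase and freed of red blood cells before the 3′ libraries were made. The labels name 3 samples per group, and 1 library labelled OE-Vector and 3 labelled OE-MLKL were analysed here. With 1 OE-Vector library, a difference between the groups cannot be told apart from a difference between tumours.

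Classical monocytes carry Ly6C and the chemokine receptor CCR2, which lets them leave the bone marrow and follow CCL2 into inflamed tissue and tumours. There they lose Ly6C and become macrophages that express complement C1q, or cells rich in MHC class II. Type I interferons induce a large group of genes in monocytes, many of them through a GAAA repeat in the promoter.

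Isg15, which encodes a ubiquitin-like protein, and Bst2, which encodes the viral tether tetherin, were both called lower in the OE-MLKL monocytes (below). Both passed the count filter of that test only with the OE-Vector library counted, where they were higher. Their shared direction is therefore a description and not evidence, and neither call held in all alternatives. The promoters of both genes are shown because of these calls. Each is the 250 bases before the transcript start in RefSeq (GRCm38.p6, minus strand, written 5′ to 3′), and capitals mark matches to GAAANNGAAA or its reverse complement TTTCNNTTTC. The Isg15 window is chr4:156200819-156201068 and the Bst2 window chr8:71537473-71537722.
Isg15: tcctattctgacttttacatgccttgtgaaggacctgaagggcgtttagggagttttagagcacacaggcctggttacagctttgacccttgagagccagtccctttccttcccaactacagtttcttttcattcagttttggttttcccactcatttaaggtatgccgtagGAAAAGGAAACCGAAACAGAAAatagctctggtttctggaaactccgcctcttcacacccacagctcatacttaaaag
Bst2: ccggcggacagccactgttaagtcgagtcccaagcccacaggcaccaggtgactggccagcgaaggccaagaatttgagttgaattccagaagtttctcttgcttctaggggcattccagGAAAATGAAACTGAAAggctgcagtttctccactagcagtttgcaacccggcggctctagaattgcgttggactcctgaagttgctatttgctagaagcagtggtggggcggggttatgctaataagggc

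The Isg15 window held 3 overlapping matches, the farthest starting 78 bases before the transcript start, and the Bst2 window held 2, starting 130 bases before it. Of all 27025 genes with a promoter in the table, 3.46% had a match. Of the 22 type I interferon-induced genes in a list drawn up for the analysis, 16 had a promoter there and 9 held a match. Of a list of 15 genes induced mainly by interferon-gamma, which holds guanylate-binding proteins, immunity-related GTPases and the transcription factor Irf1, 10 had a promoter and 9 held a match.

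The libraries held 150591289 to 169978362 UMIs in all barcodes. The monocytes held 184673 UMIs in OE-Vector 1, 42954 in OE-MLKL 1, 78317 in OE-MLKL 2 and 12159 in OE-MLKL 3. Their median depth was 4299, 3993, 3179 and 4094 UMIs per cell in that order, and the median share of mitochondrial UMIs was 3.01% to 3.52%. Over all cells, Mlkl stood at 13.7 UMIs per 1000000 UMIs (CPM) in OE-Vector 1, against 8.09, 12.1 and 15.8 CPM in the OE-MLKL libraries. In cells with at least 5 UMIs of Krt8 and Krt18, which include the injected cancer cells, it stood at 16.5 CPM against 8.74, 12.98 and 19.7 CPM. These 3′ tags therefore did not separate the groups as labelled, and whether the construct yields such tags was not established. Among the monocytes, Mlkl had 2, 1, 1 and 1 UMIs and was not tested.

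Monocytes were most frequent in the OE-Vector library. OE-Vector 1 held 40 monocytes among 15382 cells (0.260%, exact Clopper-Pearson 95% interval 0.186% to 0.354%). The OE-MLKL libraries held 10 of 18467 cells (0.0542%, 0.0260% to 0.0996%), 19 of 23063 (0.0824%, 0.0496% to 0.129%) and 3 of 17634 (0.0170%, 0.00351% to 0.0497%). OE-Vector 1 lay above all 3 OE-MLKL libraries and was 3.16 times the highest of them. The OE-MLKL mean was 0.0512% ± 0.0328 (SD, n = 3), and the exact two-sided permutation test gave p = 0.25, the smallest that 1 against 3 libraries allow.

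**Figure D1:**
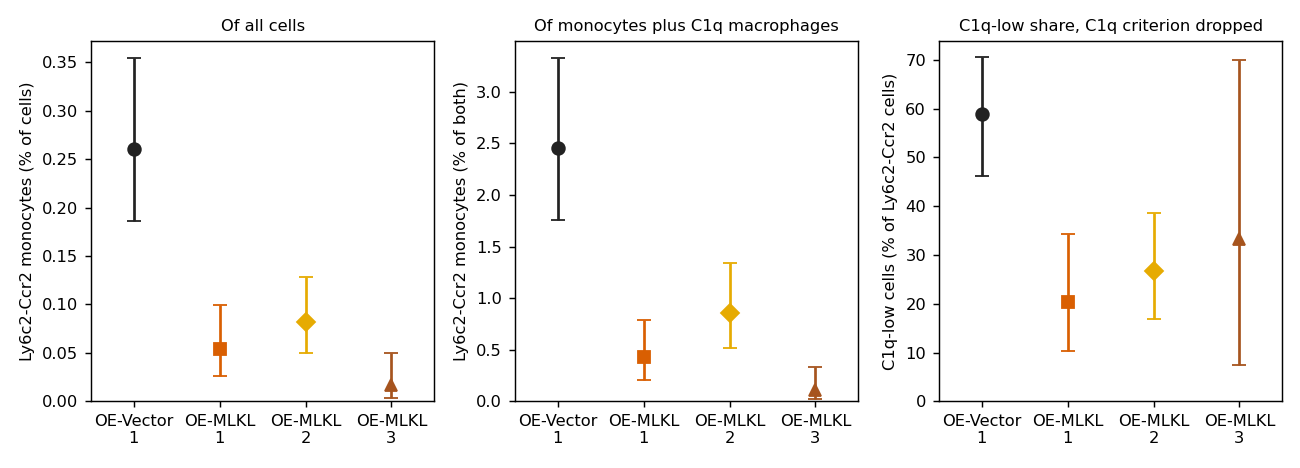
Percentage of Ly6c2-Ccr2 monocytes in each library (points, with exact 95% binomial intervals), of all cells (left) and of monocytes plus C1q macrophages (middle), and the percentage of C1q-low cells once the C1q criterion was dropped (right). OE-Vector 1 sits highest in each panel, at 0.260%, 2.45% and 58.8%.

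The same order held within the mononuclear phagocytes. Monocytes made up 2.45% of monocytes plus C1q macrophages in OE-Vector 1, against 0.431%, 0.859% and 0.113% in OE-MLKL 1 to 3. C1q macrophages, gated by their C1q transcripts, numbered 1592, 2310, 2193 and 2654. The intervals cover counting error only, and the shares also rest on how many cells of other types each library yielded.

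The C1q criterion decided many memberships. Cells that met every other criterion but exceeded the C1q limit numbered 28 in OE-Vector 1, against 39, 52 and 6 in OE-MLKL 1 to 3. C1q-low cells were therefore 58.8% of Ly6c2-Ccr2 cells in OE-Vector 1, and made up 20.4%, 26.8% and 33.3% of those in the OE-MLKL libraries. Without the criterion the monocytes numbered 68, 49, 71 and 9, OE-Vector 1 was 1.44 times the highest OE-MLKL library, and the permutation p was 0.5. At the Ly6c2 limit, 8, 2, 7 and 2 members had exactly 2 UMIs, while 15, 4, 10 and 5 cells met all else but held 1 UMI. Members had a median of 5, 5.5, 3 and 2 UMIs of Ly6c2 and of 7, 1, 4 and 9 UMIs of Ccr2.

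A score against simulated doublets marked 3 of the 40 members of OE-Vector 1, and 4 of 10, 10 of 19 and 1 of 3 in OE-MLKL 1 to 3. Marking at 0.8% per 1000 cells covered 12.3% of all OE-Vector 1 cells. For OE-MLKL 1 to 3 this rate was 14.8%, 18.4% and 14.1%. OE-Vector 1 members were thus marked less often than their library at large, and OE-MLKL members more often. The marked members also entered the gene comparison below. The marked cells were kept, and without them the share was 0.274% in OE-Vector 1, against 0.0381%, 0.0479% and 0.0132% in the OE-MLKL libraries. No member barcode was shared as a member between libraries. Between OE-Vector 1 and OE-MLKL 3, 2 member barcodes of either library were also cells in the other.

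The cells were rich in Vcan and Plac8, genes of a list of 14 for classical monocytes that had not been used to choose them. Monocytes were set beside C1q macrophages, neutrophils and Cd209a dendritic cells. The dendritic gate held only 14, 0, 2 and 4 cells in OE-Vector 1 and OE-MLKL 1 to 3, so OE-MLKL 1 lacked that comparison. Of 1588 genes at 50 CPM or more in the monocytes of every library, 86 exceeded every available gate in all libraries. At least 2-fold excess was reached by 6 genes, Ly6c2 and Ccr2 of the rule among them. Of the classical monocyte list, only Vcan and Plac8 were among these 6. Other genes of that list stood out less or not at all. Fn1 had a lowest ratio of 1.24, and Chil3 lay below its neutrophil level in OE-MLKL 3. These comparisons describe the gates and were not tested. Vcan, which encodes the matrix proteoglycan versican, led the 6 genes with at least 31.3 times the next gate in the library where that ratio was lowest. Its monocyte level was 585 CPM in OE-Vector 1, with 326, 728 and 1069 CPM in OE-MLKL 1 to 3, against 5.43 to 10.4 CPM in C1q macrophages. Its minus-strand gene spans bases 89655312 to 89742509 of chromosome 13 (GRCm38), where Gm16318 and Gm4117 overlap it on the other strand. After thinning to 1000 UMIs per cell, 16 of 40, 3 of 10, 9 of 19 and 2 of 3 monocytes held a Vcan UMI, and 0.103% to 0.243% of T cells did.

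F10, which encodes coagulation factor X, stood at 341 CPM in OE-Vector 1 and at 349, 332 and 411 CPM in the OE-MLKL libraries, 5.18 to 12.5 times the next gate. Ms4a8a, a tetraspanning membrane protein gene, stood at 97.5, 233, 229.8 and 329 CPM. Plac8, a gene strongly expressed in myeloid progenitors and classical monocytes, stood at 5063, 885, 1149 and 2961 CPM. The order of the libraries differed between these genes, with F10 nearly level, Ms4a8a lowest in OE-Vector 1 and Plac8 highest there. Thbs1 (thrombospondin 1), Jarid2, Trps1 and Fcgr1 completed the 10 leading genes, besides Ly6c2 and Ccr2 themselves, with lowest ratios of 1.55 to 1.66.

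**Figure D2:**
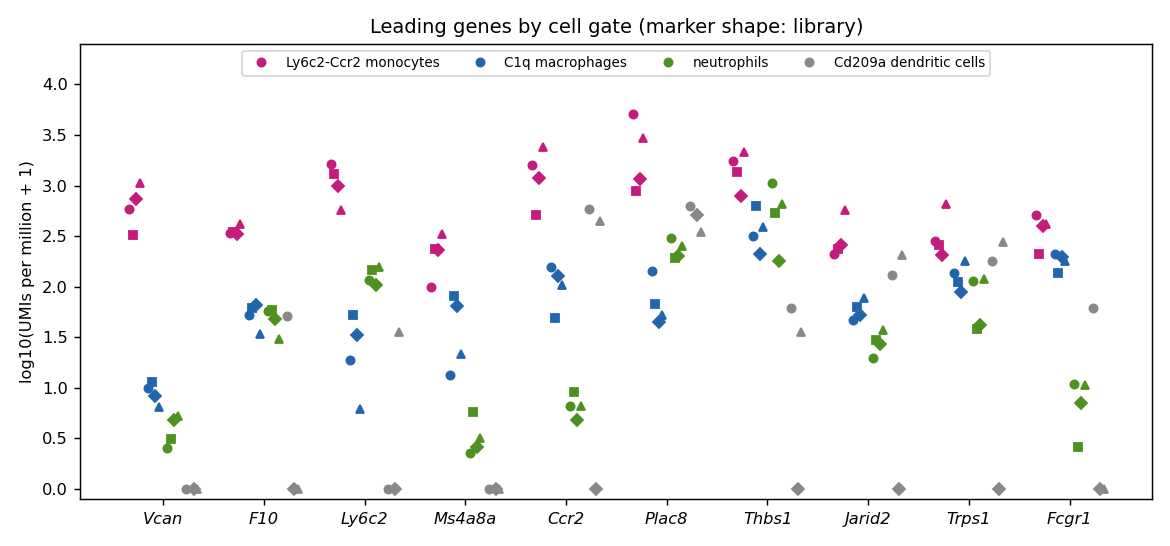
Level of the 10 leading genes in 4 gates, as log10(CPM + 1) of counts summed per library, where colour marks the gate and shape the library (circle OE-Vector 1, square, diamond and triangle OE-MLKL 1 to 3). Within each library, monocyte points lie above the other gates for every gene, with the widest gap for Vcan. Across libraries some overlap, as for Thbs1, Ccr2 and Trps1, and OE-MLKL 1 had no Cd209a dendritic cell.

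Macrophage transcripts were present in all members, whereas most markers of other cell types were absent or near 0. The 15 macrophage genes made up 0.774%, 0.836%, 0.781% and 0.485% of monocyte UMIs, with single cells up to 2.78%, against 2.28% to 3.24% of C1q macrophage UMIs. Apoe, a lipid carrier, was found in 39 of 40, 9 of 10, 19 of 19 and 3 of 3 members, and after thinning in 29.4% to 60.2% of T cells. Cd209a, Ccr7, Xcr1, Clec9a and Zbtb46 of dendritic cells, Siglech of plasmacytoid dendritic cells, and Cd3d, Cd3g, Trac, Cd8a and Cd4 of T cells had no UMI in any member. The absent genes were 5 of 11 listed for dendritic cells, 4 of 6 for plasmacytoid dendritic cells and 6 of 7 for T cells. The rule itself required no Cd3e UMI, so the absence of Cd3e was fixed in advance. The other dendritic cell genes gave 19, 1, 10 and 2 UMIs in 12 of 40, 1 of 10, 5 of 19 and 2 of 3 members, and Tcf4 was found in 16 of 40, 3 of 10, 6 of 19 and 1 of 3. The same absence held for Cd79a and Ms4a1 of B cells, for the 5 erythroid genes and for Ly6g, Ngp and Camp of neutrophils. In OE-Vector 1 alone, Ighm had 18, Pecam1 11 and Gzma 6 UMIs, genes named after their values were seen. The 12 neutrophil genes made up 0.0247% to 0.0524% of monocyte UMIs. Ly6c1, a near-identical copy of Ly6c2, had 0, 0, 0 and 1 UMIs, so reads shared between the copies may have been dropped or assigned to Ly6c2. The MHC class II genes varied widely among members. Their summed share of UMIs per cell ran from 0.0188% over a median of 0.238% to 5.32% in OE-Vector 1, and the highest cells of OE-MLKL 1 to 3 reached 3.58%, 3.12% and 1.54%. Members with at least 1% numbered 10 of 40, 2 of 10, 2 of 19 and 1 of 3.

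The monocytes were then compared between the groups gene by gene, to ask how those of the libraries labelled OE-MLKL differed. Counts were summed per library and tested with edgeR's quasi-likelihood test and Benjamini-Hochberg adjustment at 0.05. Of 2656 genes with at least 20 UMIs over the 4 libraries, 10 were called (0.377%), and all were lower in OE-MLKL. They were Mcpt2, Ccl24, Ifi27l2a, Cma1, Ccl5, Mcpt1, Arg1, Ero1l, Bst2 and Isg15. None was called higher. The filter can admit a gene through OE-Vector 1 alone, which held the most monocyte UMIs. All called genes but Arg1 reached 20 UMIs only with OE-Vector 1 counted. That the calls share a direction is therefore a description and not evidence. An unadjusted p under 0.05 was reached by 171 genes (6.44%), of which 110 were lower (4.14%) and 61 higher (2.3%), and the median fitted change over all genes was -0.01 on the log2 scale. DESeq2 called 4 genes and limma-voom 5. The spread came from the OE-MLKL libraries alone, was taken to hold for the single OE-Vector library as well, and includes OE-MLKL 3 with its 3 cells.

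**Figure D3:**
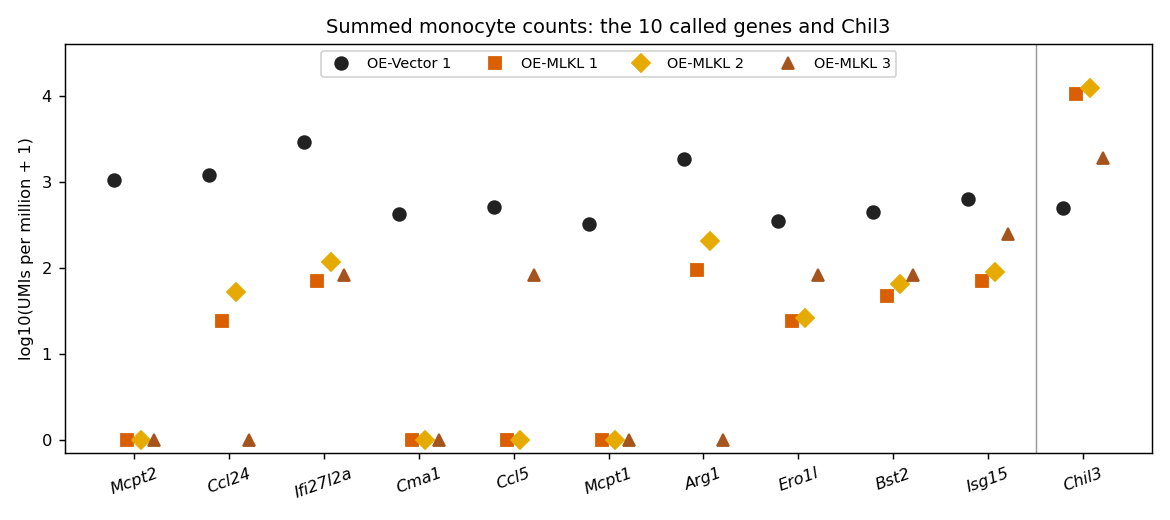
Level of the 10 called genes and of Chil3 in the summed monocytes of each library, as log10(CPM + 1). OE-Vector 1 (black circles) lies above all 3 OE-MLKL libraries for each called gene, and below them for Chil3, which was not called.

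Ifi27l2a, an interferon-induced gene of the mitochondrial and endoplasmic membranes, was lower in the OE-MLKL monocytes, and its transcripts came from nearly all OE-Vector cells. It stood at 2875 CPM in OE-Vector 1 (exact 95% Poisson interval 2636 to 3131), and at 69.8, 115 and 82.2 CPM in OE-MLKL 1 to 3. The OE-MLKL mean was 89.0 ± 23.3 CPM (SD, n = 3), and the OE-Vector library lay 29.5-fold above the pooled OE-MLKL counts (exact interval 17.1 to 55.8). The fitted log2 fold change was -4.93 ± 0.64 (SE, adjusted p = 0.000593 by edgeR's quasi-likelihood test). The gene was called in all 18 alternatives run, with adjusted p-values from 5.9e-10 to 0.037. In these and the later tallies, the minimum of 1000 UMIs per cell removed no monocyte, since the shallowest had 1673, so it repeats the main values and adds no evidence.

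The transcript was spread over the OE-Vector cells, where 39 of 40 monocytes held an Ifi27l2a UMI and the highest held 44 of the 531. In OE-MLKL 1 to 3, 3 of 10, 5 of 19 and 1 of 3 cells held any. After thinning to 1000 UMIs per cell, the counts were 30 of 40, 1 of 10, 2 of 19 and 1 of 3. T cells, for comparison, gave 29.2%, 6.85%, 10.7% and 10.1% after thinning, from median depths of 4133.5, 4245.5, 3513 and 3496.5 UMIs. OE-Vector 1 thus lay highest in both cell types, and its monocytes above its T cells. The gene is on the minus strand of chromosome 12 (103442167 to 103443680), and reads shared with similar copies of its family could be split among them.

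**Figure D4:**
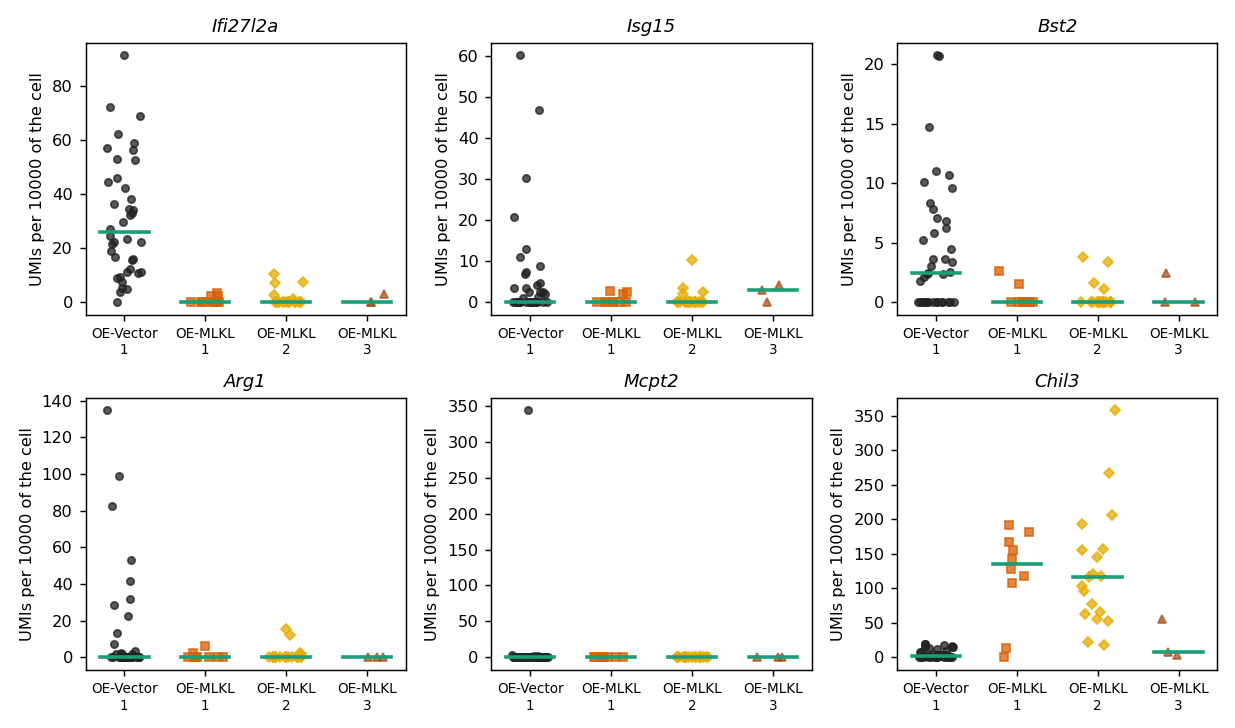
UMIs per 10000 in each monocyte (points) by library, with the median as a green bar. Ifi27l2a was present in nearly every OE-Vector 1 cell (median 25.8), Mcpt2 in a lone high cell, Arg1 in a minority, and Chil3 was high across OE-MLKL 1 and 2 (medians 135 and 117).

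Isg15 and Bst2, the called genes of the type I interferon-induced list, were lower too, at smaller counts. Ifi27l2a itself is not in that list. Isg15 stood at 639 CPM in OE-Vector 1 and at 69.8, 89.4 and 247 CPM in OE-MLKL 1 to 3. OE-Vector 1 lay above all 3 OE-MLKL libraries, as it did for 21.1% of all genes tested. The log2 fold change was -2.66 ± 0.54 (SE, adjusted p = 0.0351 by edgeR). Isg15 UMIs were found in 19 of 40 OE-Vector cells, the highest of which held 30 of 118, and with at most 5 UMIs of a gene per cell the change was -1.55 (adjusted p = 0.462). Bst2 stood at 449 CPM against 46.6, 63.8 and 82.2 CPM, with a log2 fold change of -2.89 ± 0.56 (adjusted p = 0.0227 by edgeR). Bst2 UMIs were found in 25 of 40 OE-Vector cells and in 7 of the 32 OE-MLKL cells. Isg15 was called in 6 of 18 alternatives and Bst2 in 10 of 18. Neither was called with DESeq2, limma-voom or cells thinned to 1000 UMIs. Their log2 fold changes there were -2.56, -2.64 and -2.40 (Isg15) and -2.90, -2.67 and -1.70 (Bst2). Isg15 was also not called without the cells scored as doublets (-2.76). Leaving out OE-MLKL 1 or OE-MLKL 2 ended both calls, with adjusted p-values of 0.412 and 0.999 for Isg15, and of 0.313 and 0.552 for Bst2.

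Of those 22 listed genes, 13 were tested, 2 were called lower and none higher. Over all genes tested, 0.377% were called, the share to set beside this and the later lists. All 13 had a fitted change below 0, against 50.6% of all genes tested, and their median was -1.65. The median was -1.10 without OE-MLKL 1 and -0.93 with at most 5 UMIs of a gene per cell. The filter of 20 UMIs over all libraries can admit a gene through OE-Vector 1 alone, so counts and medians of tested list genes, here and for the lists that follow, are descriptions and not evidence of a direction. For 9 of them OE-Vector 1 lay above all 3 OE-MLKL libraries, which held for 21.1% of all genes tested, while 17.4% lay below all 3. Ifitm3, which blocks virus entry, was not called at 4629.8 CPM against 1094, 1826 and 1809 CPM.

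The list of guanylate-binding proteins, immunity-related GTPases and Irf1 had fitted changes on both sides of 0. Of 15 listed genes 9 were tested, none was called, 3 had a fitted change below 0 and 6 above it, and their median was 0.21. The median was -0.05 with no C1q UMI allowed, -0.29 without the C1q criterion and -0.03 without OE-MLKL 2. Gbp2, the most abundant by CPM, stood at 877 CPM in OE-Vector 1 and at 233, 1443 and 6497 CPM in OE-MLKL 1 to 3. The OE-MLKL libraries thus lay on both sides of the OE-Vector library, and 45 of the 79 Gbp2 UMIs of OE-MLKL 3 came from 1 cell. Iigp1 stood at 32.5 CPM against 69.8, 217 and 82.2 CPM and was not called.

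Ifi27l2a, Isg15 and Bst2 also had their highest values in OE-Vector 1 among C1q macrophages, neutrophils and T cells, which is given as a description. Ifi27l2a stood at 422 CPM in C1q macrophages of OE-Vector 1 against 77.1, 79.6 and 72.1 CPM in OE-MLKL 1 to 3. In neutrophils the values were 807 CPM against 28.3, 27.8 and 103 CPM, and in T cells 382 CPM against 53.8, 84.5 and 112 CPM. Barcodes with at most 100 UMIs, which hold mostly free RNA, gave 207 CPM against 34.7, 40.7 and 47.7 CPM. OE-Vector 1 was highest in each, and its monocytes held more Ifi27l2a than these other cells and its free RNA. For Isg15, neutrophils held 897 CPM in OE-Vector 1, above its monocytes, against 50.3, 96.9 and 317 CPM. For Bst2, C1q macrophages held 583 CPM against 158, 180.5 and 263 CPM. The part of free RNA in the difference was not tested. Whether the change differed between monocytes and C1q macrophages was tested with an interaction term in edgeR, which gave -2.75 ± 0.68 (SE) for Ifi27l2a with an adjusted p of 0.099.

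Arg1, which encodes the arginine-degrading enzyme arginase 1 of suppressive myeloid cells, stood at 1830.3 CPM in OE-Vector 1 and at 93.1, 204 and 0 CPM in OE-MLKL 1 to 3. Its log2 fold change was -3.76 ± 0.65 (SE, adjusted p = 0.00907 by edgeR). The UMIs came from 15 of 40 OE-Vector cells, the highest of which held 120 of 338, and from 6 of 32 OE-MLKL cells. Arg1 was called in 11 of 18 alternatives. The call was lost without OE-MLKL 1 (adjusted p = 0.228), without the C1q criterion (log2 fold change -1.38, adjusted p = 0.569) and when each cell was limited to 5 UMIs of a gene (-1.29, 0.691). It was also lost with DESeq2 (0.0501), limma-voom (0.0888), a minimum of 80 UMIs (0.0622) and no C1q UMI allowed (0.117). C1q macrophages held 1584 CPM of Arg1 in OE-Vector 1 and 633, 1099 and 869 CPM in the OE-MLKL libraries. The interaction term between cell type and group was called for 7 of 13007 genes (0.0538%), Arg1 among them (-3.22 ± 0.70 SE, adjusted p = 0.00929 by edgeR), with the larger change in the monocytes. None of the 7 calls held without OE-MLKL 1. Of the 12 genes listed for suppressive monocytes, 8 were tested, Arg1 alone was called, and their median was -0.32, which turned to 0.04 without OE-MLKL 1 and was -0.80 without OE-MLKL 2. Vegfa, the angiogenic growth factor, stood at 168 CPM against 0, 12.8 and 0 CPM and was not called (adjusted p = 0.0639).

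Ero1l, which encodes an endoplasmic oxidase induced by hypoxia, stood at 347 CPM in OE-Vector 1 and at 23.3, 25.5 and 82.2 CPM in OE-MLKL 1 to 3. Its log2 fold change was -3.46 ± 0.66 (SE, adjusted p = 0.0219 by edgeR), and it was called in 9 of 16 alternatives. The call was lost without OE-MLKL 1 (adjusted p = 0.288), without OE-MLKL 2 (0.611), with DESeq2 (0.9999), limma-voom (0.177), doublets removed (0.0796), no C1q UMI allowed (0.435) and at most 5 UMIs of a gene per cell (0.149). In these settings the log2 fold change of Ero1l ran from -3.97 to -2.87. Among 15 hypoxia and glycolysis genes, 14 were tested, 13 had a fitted change below 0 (50.6% of all genes), Ero1l alone was called, and the median was -0.86. Aldoa, a glycolytic aldolase, stood at 1083 CPM against 349, 459.7 and 493 CPM, and 10 of the 14 genes were lower in all 3 OE-MLKL libraries, as were 21.1% of all genes. Gapdh stood at 2567 CPM against 2421, 1405 and 1645 CPM.

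Chemokine ligands held 1 called gene. Ccl5, which attracts T cells and monocytes, stood at 509 CPM in OE-Vector 1 and at 0, 0 and 82.2 CPM in OE-MLKL 1 to 3. The OE-MLKL libraries held 1 UMI in all, so the ratio of 67.9 had an exact interval of 11.9 to 2710.8. The adjusted p was 0.0026 by edgeR, and the gene was called in 11 of 17 alternatives. The call was lost without OE-MLKL 1 (0.0839), with DESeq2 (0.9999), limma-voom (0.0752), a minimum of 80 UMIs (0.0622), at most 5 UMIs of a gene per cell (0.149) and without the C1q criterion. Of 94 OE-Vector UMIs 48 came from 1 cell, and T cells of that library held 4733 CPM against 1423, 1727 and 3683 CPM. Without the C1q criterion the log2 fold change of Ccl5 was 0.0079. Over the list, 11 of 15 genes were tested, 10 had a fitted change below 0 (50.6% of all genes), and the median was -1.18, with -1.997 without OE-MLKL 2 and -0.50 with at most 5 UMIs of a gene per cell. Ccl24, an eosinophil attractant outside the list, lay at 1197 CPM against 23.3, 51.1 and 0 CPM with an adjusted p of 0.000593 by edgeR, and 199 of its 221 OE-Vector UMIs came from 1 cell. It was no longer called without the cells scored as doublets (adjusted p = 0.756) or with the stricter Ly6c2 and Ccr2 limits (0.994).

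The 3 mast cell proteases Mcpt2, Cma1 and Mcpt1 came almost wholly from 1 cell. Mcpt2 stood at 1039.7 CPM in OE-Vector 1, at least 46.2-fold above the OE-MLKL libraries, which held no UMI (floor of 3 UMIs over the group). Cma1 was at least 18.8-fold and Mcpt1 at least 14.2-fold higher by the same floor. A lone OE-Vector monocyte held 189 of 192 Mcpt2 UMIs, all 78 of Cma1 and 58 of 59 of Mcpt1. It had 402 UMIs of 6 mast cell protease genes among 5498, together with 5 of Ly6c2, 11 of Ccr2, 20 of Lyz2 and 7 of Fcer1a, and none of Kit. It was not scored as a doublet, and the next highest member held 2 such UMIs. Without this cell 7 genes were called. The genes are neighbours on chromosome 14, at 56042041 to 56044642 (Mcpt2), 55941451 to 55944675 (Cma1) and 56017971 to 56020384 (Mcpt1), and similar sequences make the split between Mcpt1 and Mcpt2 uncertain.

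Chil3, which encodes the chitinase-like lectin Ym1 of monocytes and neutrophils, had higher values in OE-MLKL. It stood at 493 CPM in OE-Vector 1 and at 10359.9, 12168 and 1892 CPM in OE-MLKL 1 to 3. All OE-MLKL libraries lay above the OE-Vector library, as they did for 17.4% of all genes tested. They differed among themselves, and the change of 4.07 ± 1.32 (SE) was not called (adjusted p = 0.36 by edgeR). It was called in 4 of 18 alternatives, with DESeq2 (adjusted p = 0.0168), filterByExpr (0.0467), the stricter Ly6c2 and Ccr2 limits (1.4e-11) and cells thinned to 1000 UMIs (0.0081). Per 10000 UMIs, the median cell held 2.49 in OE-Vector 1, against 135, 117 and 7.33 in the OE-MLKL libraries. Neutrophils showed the same order, with 62.1 CPM in OE-Vector 1 and 7111, 8139 and 2429 CPM, as did free RNA with 116 CPM against 644, 821 and 447 CPM. The part of neutrophil RNA in the monocyte values was not tested.

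The classical monocyte list, Chil3 included, spread around 0. Of 14 listed, 13 were tested, 7 had a fitted change below 0 and 6 above it, none was called, and the median was -0.04 (0.0089 without OE-MLKL 1 and -0.08 without OE-MLKL 2). Plac8 (above) was not called, and Ms4a4c, an interferon-responsive MS4A gene, stood at 861 CPM against 186, 192 and 411 CPM without being called (adjusted p = 0.127). Fn1, fibronectin, stood at 1251 CPM against 1653, 2145 and 1974 CPM. The 10 nonclassical monocyte genes were sparse, with 4 tested and none called. Cx3cr1 passed the filter through OE-Vector 1, with 18 of its 21 UMIs there. The median of the 4 was -1.63 and ran from -1.82 to -0.24 over the alternatives, with 1 gene left at a minimum of 80 UMIs (-0.33). Cx3cr1, the fractalkine receptor of patrolling monocytes, stood at 97.5 CPM against 0, 25.5 and 82.2 CPM, and Nr4a1 at 563 CPM against 535, 319 and 493 CPM.

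Antigen presentation was not called in either class. Of 8 MHC class II genes 7 were tested, with a median of -0.27, and Cd74, the invariant chain, stood at 4213 CPM against 3026, 3307 and 3043 CPM. H2-Aa stood at 1229 CPM against 1653, 1366 and 1316 CPM. Of 13 MHC class I genes 10 were tested, 8 had a fitted change below 0, and their median was -0.75. B2m, the light chain, stood at 3374 CPM against 2421, 2132 and 1316 CPM.

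No gene was called among the inflammatory cytokines and NF-kB feedback genes (9 tested, median -0.29), the lysosomal enzymes and Fc receptors (19, -0.50), the adhesion genes (9, -0.16) or the chemokine receptors (8, -0.28). The same held for the monocyte transcription factors (15, -0.32), macrophage genes (11, -0.12), MS4A genes (6, -1.13) and the necroptosis and pyroptosis genes (7, 0.22). Over the alternatives the MS4A median ran from -2.23 to -0.35. Single libraries moved several of these medians. Without OE-MLKL 1 the macrophage median was -0.78, the inflammatory median -0.54, the chemokine receptor median -0.44, the necroptosis median 0.40 and the adhesion median 0.10. Without OE-MLKL 2 the necroptosis median was -0.40, the transcription factor median 0.01, the inflammatory median -0.75, the adhesion median -0.04, the macrophage median -0.38 and the chemokine receptor median -0.06. Without OE-MLKL 3 the macrophage median was -0.34 and the inflammatory median -0.14. Il1b stood at 3200.2 CPM against 1629.7, 1711 and 1809 CPM, and Il1rn, which encodes the antagonist of its receptor, at 292 CPM against 93.1, 63.8 and 0 CPM. The immediate-early genes, which cell dissociation can raise, had a median of 0.55 (10 tested), which was 0.21 without OE-MLKL 1 and -0.06 with no filter on low counts. Fos stood at 2009 CPM against 3143, 3154 and 5099 CPM. Cell cycle genes were scarce, with 7, 0, 0 and 0 UMIs of Mki67. The 12 listed genes together had 48, 6, 20 and 1 UMIs, or 0.0260%, 0.0140%, 0.0255% and 0.0082% of monocyte UMIs.

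**Figure D5:**
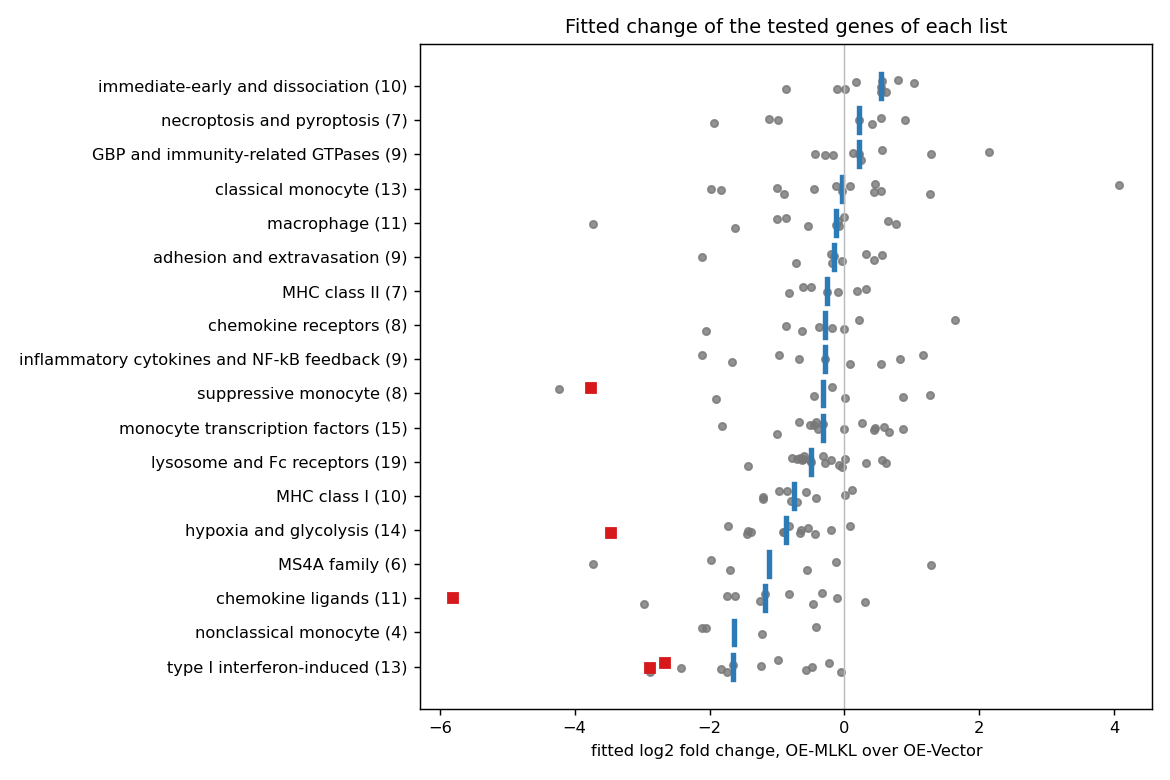
Fitted log2 fold change (OE-MLKL over OE-Vector) of each tested gene (grey circles) in 18 gene lists, with called genes as red squares, the median as a blue bar and the number tested in brackets. The type I interferon-induced list lies at -1.65, the nonclassical monocyte list at -1.63 and the GBP list at 0.21.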

How the data were processed

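Cells of 4 tumour libraries were measured with the 10x Genomics 3′ assay. The matrices deposited by the authors hold unnormalized UMI counts of each gene in each barcode, on mm10. The file headers name Cell Ranger 7.1.0, the submitters' processing notes 2.1.1. The 32285 genes were matched to GENCODE vM21 (32158 found). The 2 other OE-Vector samples were not analysed here. Members, lists and tests were chosen with earlier results of these data known. Named genes were the called genes of each list, or else its most abundant and most changed ones, the 10 genes with the smallest p, the 10 leading monocyte genes, the 10 with the smallest interaction p, and Mlkl. Absent markers, Mki67 and values per cell were named after they were seen.

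Counts of the monocytes were summed per library, TMM-scaled and fitted with edgeR 4.0.16 (R 4.3.3), with 2 residual degrees of freedom. The interaction fit held 8 sums, with the library as a block, and genes with at least 40 UMIs. Each SE printed with an edgeR change was back-calculated, as the absolute log2 change divided by the square root of the quasi-likelihood F statistic. DESeq2 1.42.0 and limma 3.58.1 served as alternatives. Doublets were scored with scikit-learn 1.9.0 and marked at 0.8% per 1000 cells. Intervals were exact 95% intervals and cover counting error only. The code was tested on simulated data. Python 3.11.15, numpy 2.4.6, scipy 1.17.1 and pandas 2.3.3 were used.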

Additional observations from a re-analysis of the deposited data

Results flagged for a closer look

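The change between the groups differed between monocytes and C1q macrophages for 7 of 13007 genes (0.0538%) by the interaction term in edgeR, with Benjamini-Hochberg adjustment, and 355 genes had an unadjusted p under 0.05. Cma1 (adjusted p = 1.28e-06), Mcpt2 (0.00400) and Tpsb2 (0.00443) came from the lone mast protease cell described above, with 422, 1039.7 and 135 CPM in the OE-Vector monocytes, none in the OE-MLKL monocytes, and at most 8.08 CPM in any macrophage sum. For Ccl5 (4.22e-06) the macrophages stood level, at 252, 254, 223 and 243 CPM, while the monocytes stood at 509, 0, 0 and 82.2 CPM. For Arg1 (0.00929) both cell types were lower in OE-MLKL, the monocytes more so. Lpl, which encodes lipoprotein lipase (0.00711, interaction 5.88), had 1, 2, 9 and 0 monocyte UMIs, 8 of the 9 in 1 cell, and 56.4, 2.72, 13.1 and 30.4 CPM in macrophages. Dusp2, a phosphatase of MAP kinases (0.0163), had 23, 0, 0 and 0 monocyte UMIs from 10 cells and 27.8, 23.5, 31.6 and 59.9 CPM in macrophages. None of the 7 calls held without OE-MLKL 1, 1 held without OE-MLKL 2 and 5 without OE-MLKL 3. Mmp8, Rilpl2 and Ifi27l2a were next and were not called.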

How the results depend on the processing

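The depth limits all of this, since OE-MLKL 3 rests on 3 cells and 12159 UMIs, and a gene at 0 there may have been missed. Against 10 genes called, DESeq2 called 4 (3 lower), limma-voom 5, no expression filter 21, filterByExpr 24 (18 lower), a minimum of 80 UMIs 3, the stricter Ly6c2 and Ccr2 limits 16 (OE-MLKL 3 had no member left), and no C1q UMI with less S100a8 and S100a9 1. Total UMI scaling called 9 lower and 1 higher. Without the cells scored as doublets, Ccl24, Ero1l and Isg15 were no longer called and the other called genes stayed called. Dropping the C1q criterion (27) and limiting a cell to 5 UMIs of a gene (1, Ifi27l2a) were chosen after seeing the data, as was leaving out the mast protease cell (7). Without OE-MLKL 1, 2 or 3, 4 to 12 genes were called. The interaction gave 11 genes with total UMI scaling (7 lower, 4 higher, against 6 and 1), where the median of all genes moved from -0.24 to -0.05, 2 without doublets, and 0 to 28 without 1 OE-MLKL library (0 without OE-MLKL 1, with 131 genes at an unadjusted p under 0.05, 1 without OE-MLKL 2, 28 without OE-MLKL 3). The lower share of monocytes in OE-MLKL kept its direction in all settings. Gating after thinning cells to 1000 UMIs left 5, 1, 2 and 0 monocytes in OE-Vector 1 and OE-MLKL 1 to 3. The rule needs minimum UMIs, and median depth differed between the libraries. It was 1983, 5287, 3358 and 2814 UMIs over all cells, and 8459, 4337.5, 4872 and 7103.5 in C1q macrophages. The part of depth in the share was not tested. Of the 61 genes followed through the alternatives, 2 turned positive without the C1q criterion, Ccl5 (0.0079, from -5.80) and Mrc1 (0.0016, from -1.62). The median of the type I interferon-induced list ranged from -2.24 to -0.93. The causes were not tested. No paired analysis was possible because 1 OE-Vector library was analysed, so the groups share 1 replicate number.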
